A study of Mus musculus with 59 samples.

Results

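The hippocampus of male mice labelled Mrpl40 -/+,Slc25a1 +/+ (Mrpl40 het) was compared with that of male mice labelled Mrpl40 +/+,Slc25a1 +/+ (wild type), by poly(A) RNA sequencing of whole tissue. The 15 libraries of these groups, 7 Mrpl40 het and 8 wild type, were chosen by their labels from 59 libraries in all, and each came from a different animal. Only 1 of 20162 genes tested passed the test between them. It was Gm10222, a nuclear copy of a mitochondrial gene, and all 11 copies of this kind that were found lay above wild type. Mrpl40 itself did not differ detectably, and no gene of the mitochondrial ribosome, of mitochondrial translation or of the respiratory chain passed the test. With only 1 gene past the test in all, the absence of calls in these groups of genes says little about them in particular.

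The mitochondrial ribosome makes the few proteins encoded in mitochondrial DNA, all of them parts of the respiratory chain and of ATP synthase. Its RNAs come from mitochondrial DNA, while its proteins, Mrpl40 of the large subunit among them, are encoded in the nucleus and imported. Mrpl40 lies in the mouse region that matches the human interval deleted in 22q11.2 deletion syndrome, a condition with a high risk of schizophrenia, and Mrpl40 haploinsufficiency has been studied in hippocampal neurons for its part in mitochondrial calcium handling and short-term synaptic plasticity. Slc25a1, the gene of the mitochondrial citrate carrier, lies in the same region.

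The study as a whole held 4 labelled genotypes in cortex and hippocampus, adding animals labelled heterozygous for Slc25a1 alone (Slc25a1 het) and for both genes (double het). Both groups compared here were labelled with 2 intact copies of Slc25a1. The kind of Mrpl40 mutation, the strain background and the age of the animals are not named by the labels used here. Library totals were 24614884 to 30347791 counts in Mrpl40 het and 21467790 to 28700192 in wild type. Levels are given as CPM, each gene's counts relative to the TMM-scaled library total. Only the marker levels that set hippocampus against cortex used the unscaled total. In bulk tissue, fewer cells of a type and less RNA per cell cannot be told apart.

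The tissue label was borne out by markers of dentate granule cells and of upper cortical layers. Prox1, the transcription factor of dentate granule cells, lay at 136 to 277 CPM in the 15 hippocampus libraries and at 15.3 CPM or less in cortex libraries of the same genotypes, and the cortical upper-layer factor Cux2 lay at 19.5 to 63.0 CPM in hippocampus against 150 to 311 CPM in cortex. The 63.0 CPM came from wild-type library 8, and the next highest hippocampus value of Cux2 was 42.9 CPM, in Mrpl40 het library 6. The CA1 list did not separate the tissues, with sums of 264 to 885 CPM in hippocampus and 456 to 548 CPM in cortex. The libraries differed in regional and cell type content. Wild-type library 8 had the highest summed oligodendrocyte markers (5062 CPM) and low dentate markers (1084 CPM), and Mrpl40 het library 5 had high oligodendrocyte markers (4375 CPM), the lowest dentate markers (1032 CPM), the highest CA3 and CA2 markers (774 CPM) and the highest choroid plexus and ependymal markers (106 CPM). These 2 libraries lay farthest from zero within the 2 groups on the first and the second principal component. Without both of them, 1 gene again passed the test.

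**Figure D1:**
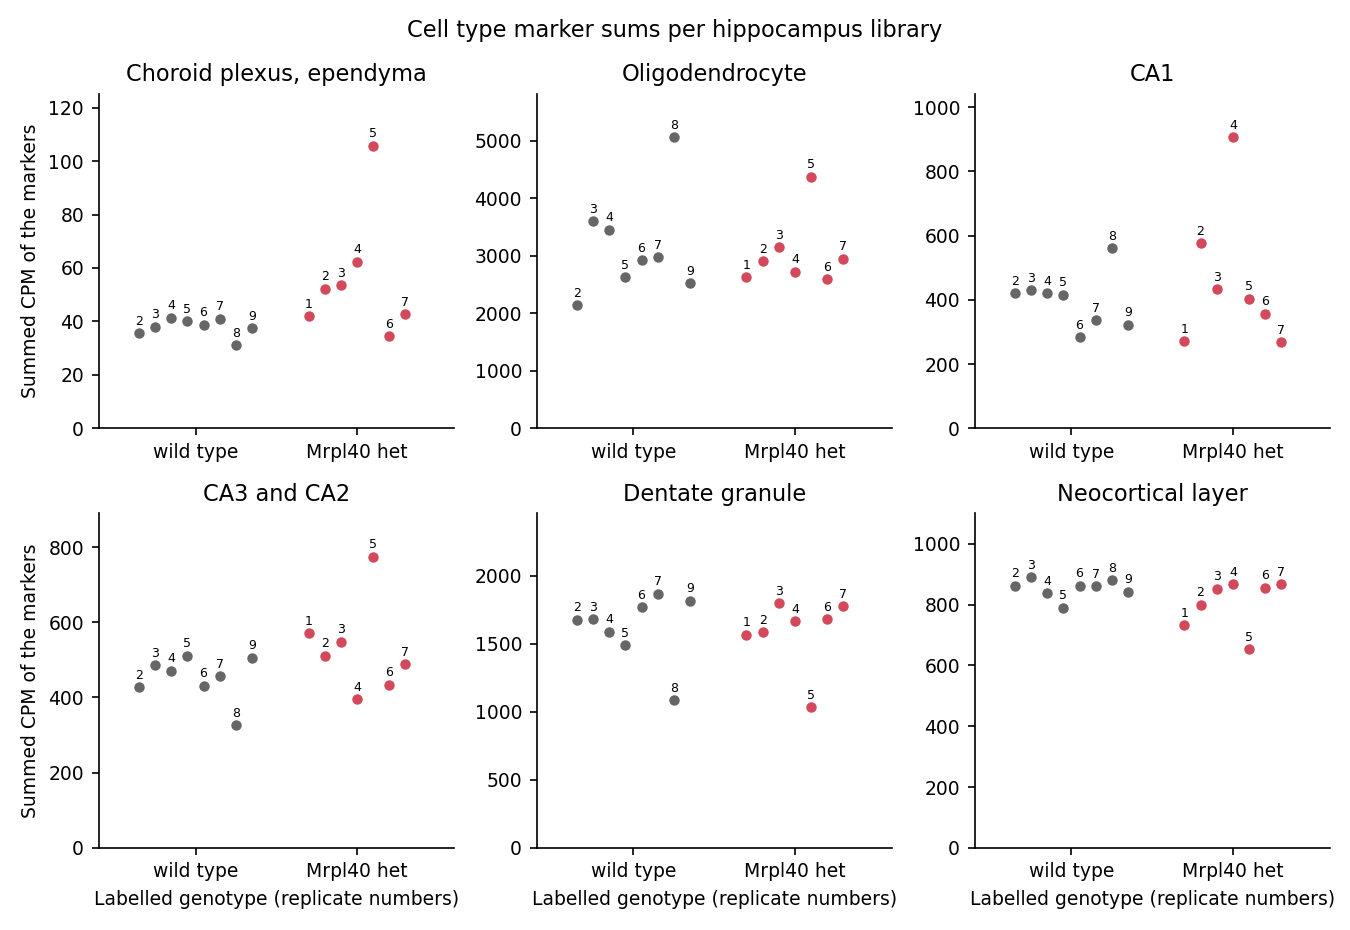
Summed CPM of 6 marker lists in each hippocampus library of wild type and Mrpl40 het, with replicate numbers beside the points. Mrpl40 het library 5 is high for choroid plexus and ependymal markers (106 CPM) and low for dentate markers (1032 CPM), and wild-type library 8 is high for oligodendrocyte markers (5062 CPM).

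The targeted gene was examined first. Mrpl40 (chr16:18872018-18876862, minus strand, GRCm38) was counted at 13.4, 16.1 and 17.5 CPM (lowest, median, highest) in wild type and at 14.1, 15.6 and 17.3 CPM in Mrpl40 het. The ranges overlapped almost entirely. The means were 15.8 ± 1.21 CPM (SD, n = 8) and 15.8 ± 1.11 CPM (SD, n = 7), and a two-sided exact permutation test of their difference gave p = 0.998. The log2 fold change was -0.00044 ± 0.054 (SE), with a 95% interval of -0.11 to 0.11, which does not reach a 2-fold fall. Counts of the gene do not distinguish the labelled groups, and the genotypes are used here as labelled.

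Slc25a1 (chr16:17925223-17928219, minus strand, GRCm38) lay at 23.3, 24.6 and 25.8 CPM in Mrpl40 het, and at 11.3, 25.0 and 26.6 CPM in wild type. The low values came from wild-type libraries 6 and 7, at 11.3 and 12.3 CPM, which goes against their labels of 2 intact copies. With all libraries the groups did not differ beyond their spread (exact permutation test, two-sided, p = 0.405), and without these 2 libraries the main comparison again called 1 gene. Among the 30 tested neighbours of the 2 genes in the region matching 22q11.2, 17 lay above and 13 below wild type, with a median log2 fold change of 0.029. None passed, and Lztr1, an adaptor of a ubiquitin ligase, was the 1 member with an unadjusted p under 0.05 (0.11 ± 0.048).

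Copies of mitochondrial genes in the nuclear genome formed the group that stood out. Such copies arise when fragments of mitochondrial DNA are inserted in a chromosome, and most are not known to be expressed. All 37 gene rows of the mitochondrial chromosome itself hold 0 counts in every library, so levels of the mitochondrial transcripts could not be read directly. A sequence search at 95% identity or more over at least 200 bases found 11 tested genes that copy a mitochondrial protein-coding gene. Of these, 7 stand side by side on chromosome 1 (24611535 to 24616197, minus strand, GRCm38), in the order of the mitochondrial genes, and 5 are identical to their source over its matched length. Reads from an identical copy and from the mitochondrial transcript cannot be told apart by sequence, so the counts of these genes are uncertain as to their origin. The sequence of Gm10222 (chr1:24612407-24612700, minus strand, GRCm38), annotated as an unprocessed pseudogene, is shown because it carries the only call, and over its 294 bases it has 0 mismatches to mt-Nd4l, the gene of a complex I subunit.
Gm10222: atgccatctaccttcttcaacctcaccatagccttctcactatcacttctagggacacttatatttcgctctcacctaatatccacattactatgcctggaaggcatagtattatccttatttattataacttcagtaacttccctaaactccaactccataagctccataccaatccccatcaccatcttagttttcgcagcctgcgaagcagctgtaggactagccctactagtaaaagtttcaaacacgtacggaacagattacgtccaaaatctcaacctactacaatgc

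Gm10222 was counted at 197, 215 and 242 CPM (lowest, median, highest) in wild type and at 272, 281 and 334 CPM in Mrpl40 het. Every Mrpl40 het library lay above every wild-type library. The means were 215 ± 14.9 CPM (SD, n = 8) and 289 ± 21.6 CPM (SD, n = 7). Mrpl40 het was 1.34-fold higher, or 0.42 ± 0.064 (SE) on the log2 scale, with a 95% interval of 0.29 to 0.55 and an adjusted p of 0.00421 by edgeR's quasi-likelihood test with Benjamini-Hochberg adjustment over all genes tested. It was the 1 gene behind the 0.00496% of tested genes that passed. The call held when each of the 15 libraries was left out in turn, with log2 fold changes of 0.39 to 0.45 and adjusted p of 0.00236 to 0.0196. With the replicate number as a block the log2 fold change was 0.38 ± 0.069 and the adjusted p 0.186, although the numbers do not pair the animals. With the 15 libraries fitted alone, 6 genes passed, all of them copies of mitochondrial genes, and the DESeq2 Wald test on all hippocampus libraries called 11 genes, 6 higher and 5 lower.

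**Figure D2:**
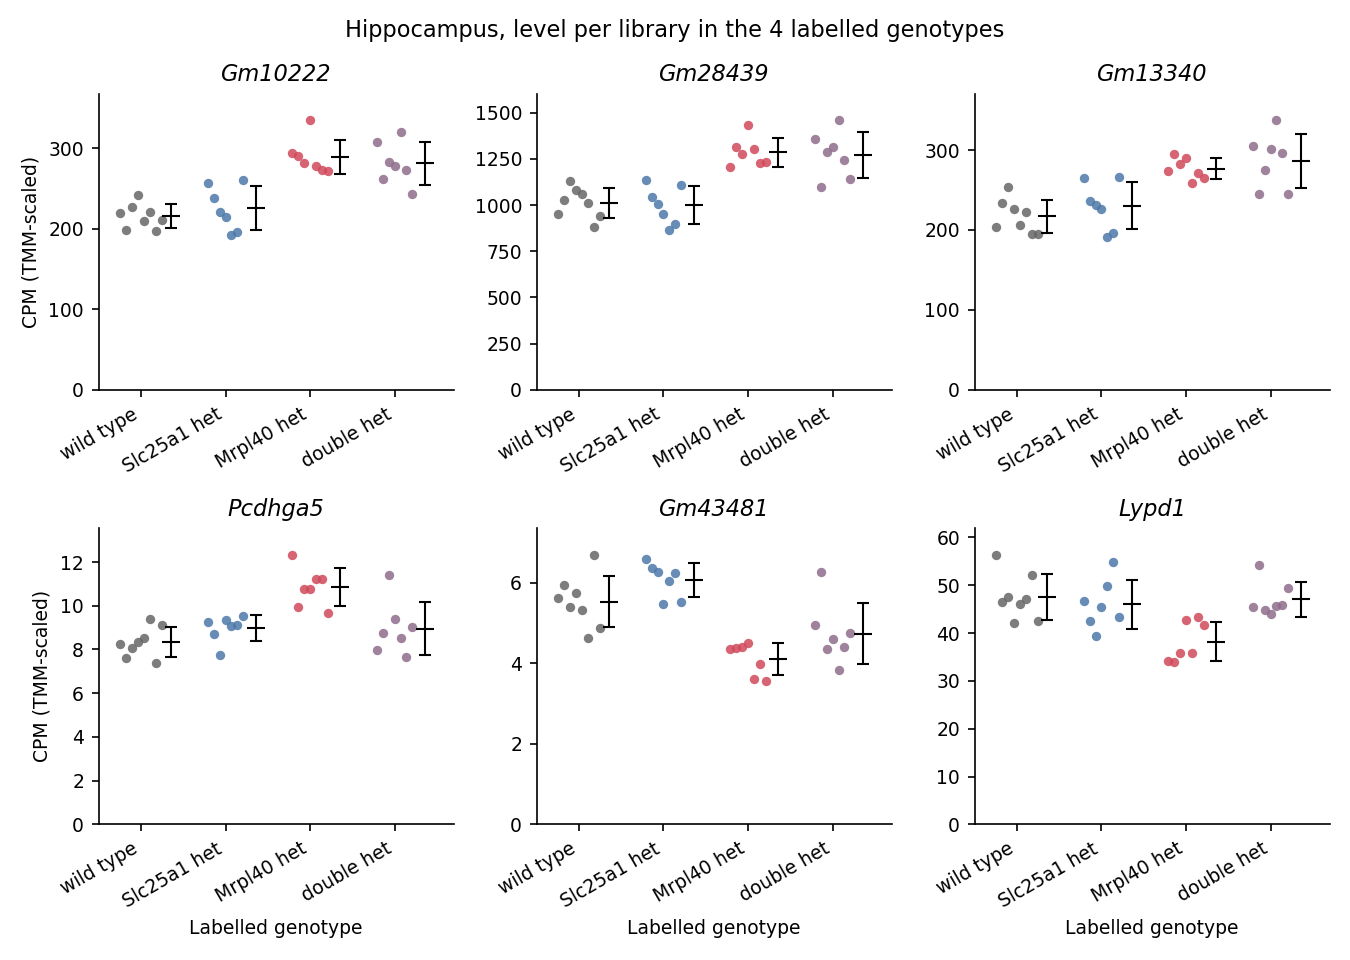
CPM in each hippocampus library of the 4 labelled genotypes for 6 genes among the 10 smallest p. Gm10222 lies at 272 to 334 CPM in the 7 Mrpl40 het libraries, all above the 197 to 242 CPM of the 8 wild-type libraries.

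The other copies lay in the same direction. Gm28439, identical to its stretch of mt-Nd4 (another complex I subunit), was at 882, 1020 and 1131 CPM in wild type and at 1206, 1278 and 1434 CPM in Mrpl40 het, with no overlap, an edgeR adjusted p of 0.0581 and a log2 change of 0.35 ± 0.064. Gm10925, identical to mt-Atp6 of ATP synthase, was the most abundant of the genes with the 10 smallest p, at 2292, 2564 and 2825 CPM against 2958, 3212 and 3785 CPM, again without overlap (0.35 ± 0.072, edgeR adjusted p = 0.117). Gm28437, identical to mt-Co3 of complex IV, was at 1295, 1387 and 1518 CPM against 1646, 1724 and 1879 CPM (0.32 ± 0.068, edgeR adjusted p = 0.121), and its groups did not overlap either. Of the remaining copies on chromosome 1, Gm28661 (mt-Co2) and Gm28438 (mt-Nd3) did not overlap between the groups, with log2 fold changes of 0.23 ± 0.072 and 0.28 ± 0.071, and Gm29216 (mt-Co1) overlapped, at 0.20 ± 0.084.

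The 4 copies on other chromosomes differ from their sources at more positions. Gm13340 (chr2:22588103-22589647, minus strand, GRCm38) matches mt-Co1 at 97.6% identity, with 37 mismatches over 1545 bases. A stretch of 60 bases, positions 460 to 519 counted from the start of each gene, is shown because a read across it can tell the copy from its source. Capitals mark the 4 bases that differ.
Gm13340: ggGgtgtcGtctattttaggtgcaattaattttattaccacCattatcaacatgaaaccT
mt-Co1: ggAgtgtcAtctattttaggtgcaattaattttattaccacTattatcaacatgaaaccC

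Gm13340 was counted at 195, 214 and 253 CPM in wild type and at 259, 274 and 295 CPM in Mrpl40 het, without overlap (log2 fold change 0.35 ± 0.072, edgeR adjusted p = 0.117). Its neighbours on chromosome 2 were scarce. Gm13339, a copy of part of mt-Nd2, lay at 3.93 to 6.73 CPM in wild type and 5.96 to 7.20 CPM in Mrpl40 het, and Gm13341, a copy of mt-Co2, at 2.75 to 3.79 and 3.33 to 5.22 CPM. Gm4076 on chromosome 13, a copy of part of mt-Nd5, lay at 1.92 to 2.60 CPM in wild type and at 2.42 to 3.53 CPM in Mrpl40 het, where 6 of 7 libraries were above every wild-type library (0.42 ± 0.10, edgeR adjusted p = 0.377).

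Over the 11 copies the median log2 fold change was 0.346 (range 0.196 to 0.423), beside a median of -0.0070 over all 20162 genes tested. All 11 had an unadjusted p under 0.05 in the higher direction, beside 4.05% of all genes. For 7 of the 11 the groups did not overlap with Mrpl40 het above, beside 0.0496% of all genes, that is 10 genes, of which the other 3 were Pcdhga5, Rps10-ps1 and 4932438A13Rik. Since 7 of the copies adjoin each other and copies can share reads with the mitochondrial transcripts, they are not independent measurements. Summed over the 11 copies, their share of a library's counts was 0.740%, 0.826% and 0.879% (lowest, median, highest) in wild type and 0.931%, 0.968% and 1.12% in Mrpl40 het, with no overlap.

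In the other genotypes of the hippocampus the share was 0.694% to 0.999% (median 0.847%) in Slc25a1 het and 0.853% to 1.12% (median 0.974%) in double het. Against Slc25a1 het, all 11 copies were higher in Mrpl40 het (median difference 0.278 on the log2 scale), and 2 passed the test, Gm10222 (0.36 ± 0.066) and Gm28439 (0.36), both with an adjusted p of 0.0224 by edgeR. Neither passed when the animals with Slc25a1 counts at odds with their genotype were left out. Of all genes 0.0893% passed there, 0.0248% in the higher direction. Double het against Mrpl40 het placed 5 copies above and 6 below 0, with a median of -0.0097 and 0 passed. Of all 20162 genes 0 passed there, so that count says nothing particular about the copies. These comparisons use the same Mrpl40 het libraries as the comparison with wild type, so they are no separate support for it.

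Cortex came from the same 15 animals and 1 further wild-type animal. There the share of the 11 copies was 0.688%, 0.728% and 0.808% in wild type and 0.800%, 0.889% and 0.931% in Mrpl40 het, so the ranges met only at their edges. All 11 copies were above wild type in cortex too, at a median log2 fold change of 0.242. Gm10222 (0.32 ± 0.046), Gm28439 (0.32 ± 0.041), Gm10925 (0.32 ± 0.041), Gm28437 (0.24 ± 0.042) and Gm28661 (0.22 ± 0.040), 5 copies in all, were among the 6 genes (0.0294% of those tested) that passed in that tissue. The difference between the tissues was fitted with the animal as a block. It had an unadjusted p under 0.05 for 0 of 11 copies, beside 5.83% of all genes. At that share, 0 of 11 says little about the copies. For Gm10222 the difference was 0.12 ± 0.086 on the log2 scale (unadjusted p = 0.170, edgeR).

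**Figure D3:**
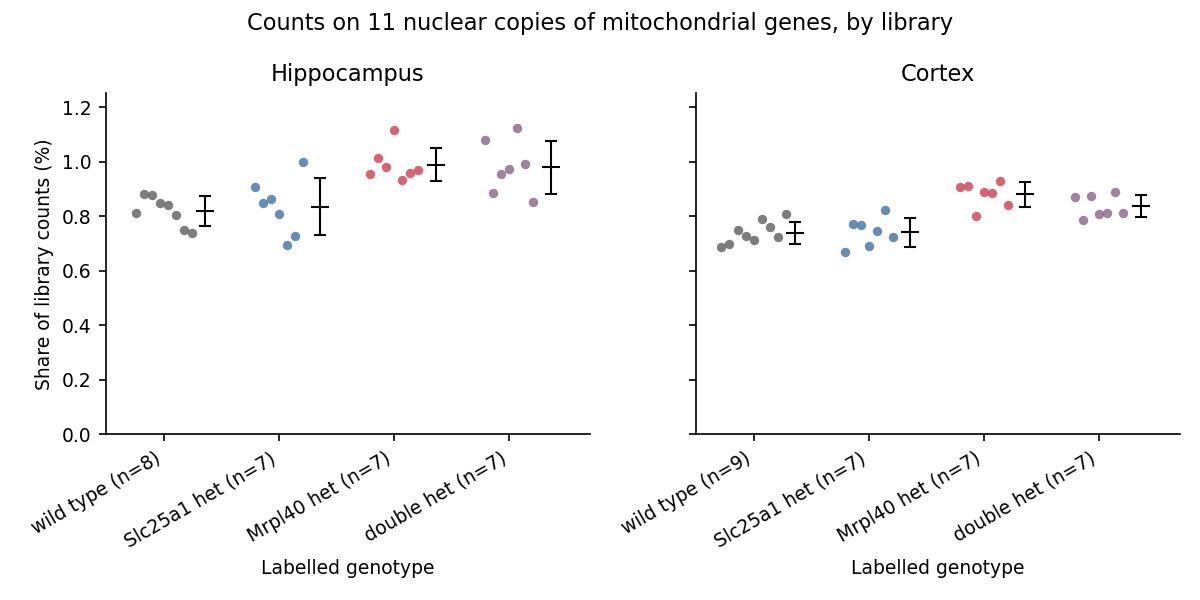
Share of each library's counts, in percent, on the 11 nuclear copies of mitochondrial genes, by tissue and labelled genotype, with points for libraries and bars for the mean ± SD. In hippocampus the 7 Mrpl40 het libraries (0.931% to 1.12%) lie above all 8 wild-type libraries (0.740% to 0.879%).

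The rest of the 10 genes with the smallest p did not pass the test by edgeR, but their calls depended on the test. By the DESeq2 Wald test Pcdhga5 (adjusted p = 0.0021), Gm43481 (0.0146), Gm10297 (0.0146), Zfp169 (0.0368) and Lypd1 (0.0477) passed. Pcdhga5 also passed by limma on the deposited values and with length and GC offsets. Pcdhga5, a gamma protocadherin of the clustered family that mediates adhesion between neurons, was at 7.37, 8.31 and 9.37 CPM in wild type and 9.68, 10.8 and 12.3 CPM in Mrpl40 het. The groups did not overlap, and the log2 fold change was 0.38 ± 0.072 (edgeR adjusted p = 0.0679), while in cortex it was 0.060 ± 0.081. The tissue difference was 0.33 ± 0.12 with an unadjusted p of 0.0100 and an adjusted p of 0.828 (edgeR). Isoforms of this cluster share their last exons, so reads from those exons can be assigned to more than 1 of its genes.

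Below wild type, the groups did not overlap for 3 genes (0.0149% of those tested), namely Gm43481, Mroh2a and Zmat1. Gm43481, a predicted gene, was at 4.63, 5.50 and 6.68 CPM in wild type and at 3.55, 4.34 and 4.51 CPM in Mrpl40 het, without overlap (-0.43 ± 0.090, edgeR adjusted p = 0.117), and at 0.036 ± 0.096 on the log2 scale in cortex. Against Slc25a1 het it was lower in Mrpl40 het, by -0.56 ± 0.092 with an adjusted p of 0.00871 (edgeR). Gm10297, also a predicted gene, was at 8.41, 9.86 and 10.3 CPM against 6.45, 7.64 and 8.68 CPM, with 6 of 7 Mrpl40 het libraries below every wild-type library. Its log2 fold change was -0.33 ± 0.070 (edgeR adjusted p = 0.117). Zfp169, a zinc finger protein, was at 6.66, 8.26 and 10.3 CPM against 4.99, 6.42 and 7.14 CPM, with overlapping groups (-0.40 ± 0.089, edgeR adjusted p = 0.185).

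Lypd1 (chr1:125867622-125913101, minus strand, GRCm38) encodes a protein of the Ly6 family, anchored in the membrane, that binds nicotinic acetylcholine receptors. It was counted at 42.1, 46.8 and 56.3 CPM in wild type and 33.9, 35.9 and 43.3 CPM in Mrpl40 het, where 5 of 7 libraries lay below every wild-type library. The log2 fold change was -0.31 ± 0.070 (edgeR adjusted p = 0.172). In double het the mean was 47.1 ± 3.61 CPM (SD, n = 7), beside 38.2 ± 4.14 CPM (SD, n = 7) in Mrpl40 het and 47.6 ± 4.74 CPM (SD, n = 8) in wild type. The log2 difference of double het from Mrpl40 het was 0.30 ± 0.072, which did not pass either (edgeR adjusted p = 0.958).

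Among all genes, 1651 (8.19%) had an unadjusted p under 0.05, 816 higher (4.05%) and 835 lower (4.14%) in Mrpl40 het. In the table as a whole 47.1% of genes lay above and 52.9% below wild type, and the median SE of a log2 fold change was 0.0900. These shares are the background for the gene lists that follow. Apart from Gm10222, no member of any list passed the test, and each list is described by its counts and its median log2 fold change. The medians of 26 of 44 lists changed sign under at least 1 of 5 alternative settings. Copies of mitochondrial genes make up 2 of the 44, a list of 5 and that of all 11. The length and GC offsets, 1 of these settings, moved the median of all genes from -0.0070 to 0.037, so a list median near 0 can change sign with it. Those of the 11 copies, of interferon-response, astrocyte, complement, endothelial, interneuron, immediate early, presynaptic, calcium channel, CA3 and CA2, and choroid plexus genes kept theirs, but not always their size. The ranges that follow take in the reported fit and the 5 alternatives. The median ranged from 0.0778 to 0.285 for CA3 and CA2 markers and from 0.186 to 0.491 for choroid plexus and ependymal markers. It ranged from 0.022 to 0.10 for calcium channel genes and from 0.020 to 0.088 for presynaptic genes. For interneuron markers it ranged from -0.182 to -0.063 and for astrocyte markers from -0.125 to -0.055. For the 11 copies it ranged from 0.282 to 0.404 and for interferon-response genes from -0.208 to -0.141. Endothelial markers ranged from -0.105 to -0.052, complement genes from -0.136 to -0.081 and immediate early genes from 0.106 to 0.169.

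The proteins of the mitochondrial ribosome were examined next. Of 51 other large-subunit genes tested, 28 lay above and 23 below wild type, with a median of 0.007. Only Gadd45gip1, a ribosomal protein placed near the exit of the nascent chain, had an unadjusted p under 0.05. It lay at 6.92, 8.34 and 8.96 CPM in wild type and at 6.47, 7.52 and 7.81 CPM in Mrpl40 het, and the groups overlapped (-0.15 ± 0.068). Of 31 small-subunit genes, 12 lay above and 19 below, with a median of -0.021, and Mrps36, which is also a part of the oxoglutarate dehydrogenase complex, was the 1 with an unadjusted p under 0.05 (-0.22 ± 0.10). Both medians were among those that changed sign.

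**Figure D4:**
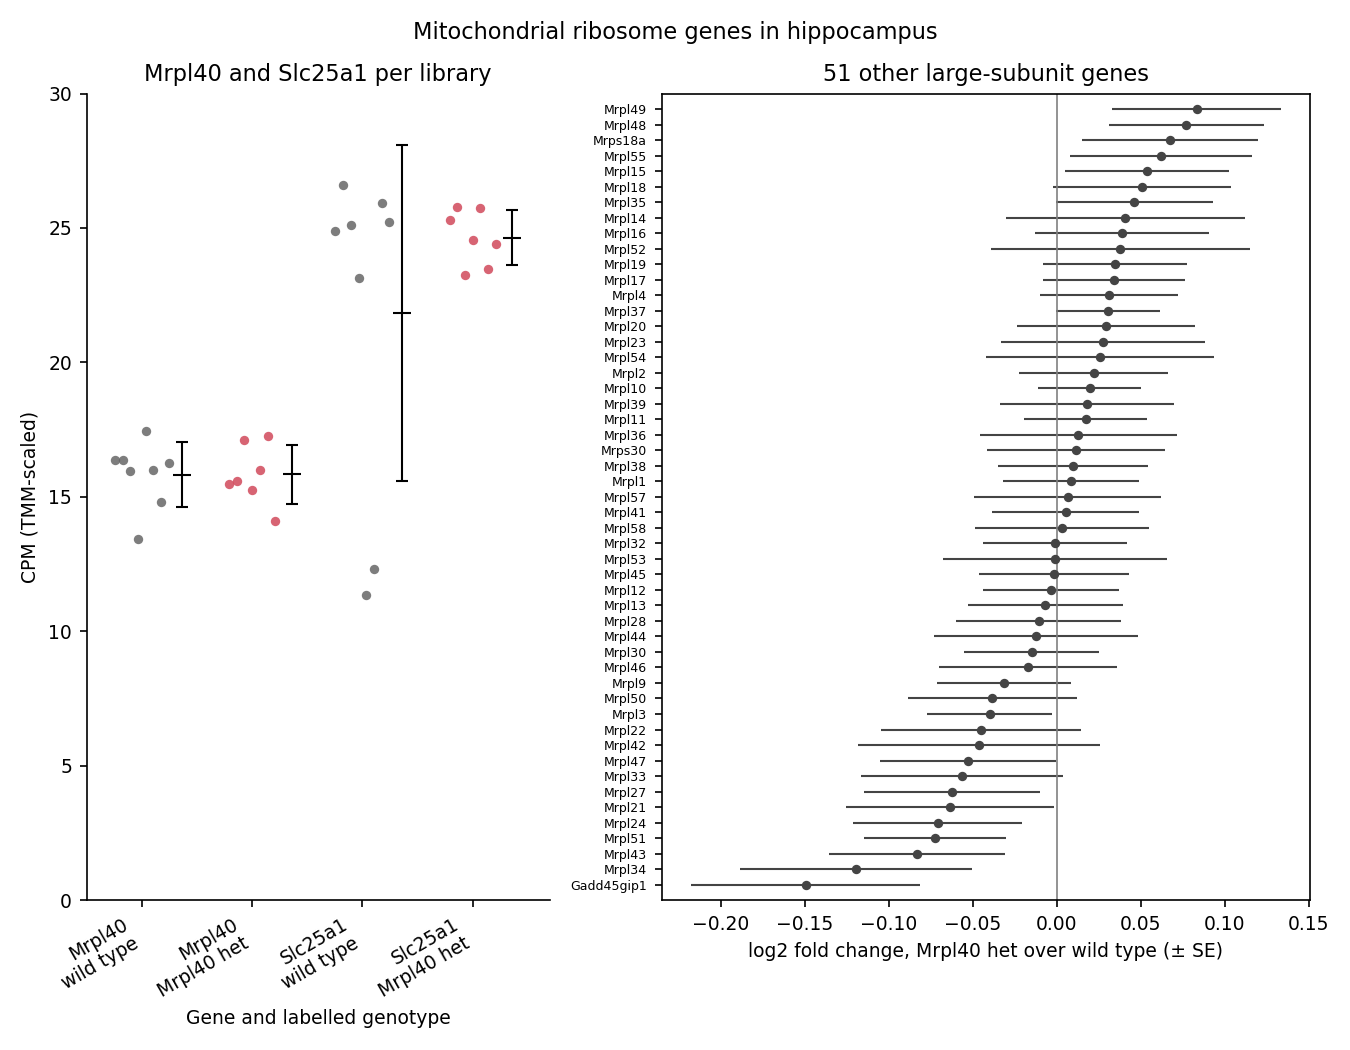
CPM of Mrpl40 and Slc25a1 in each hippocampus library of wild type and Mrpl40 het, and the log2 fold change ± SE of 51 other genes of the large mitochondrial ribosomal subunit. Mrpl40 lies at 13.4 to 17.5 CPM in wild type and 14.1 to 17.3 CPM in Mrpl40 het, and the large-subunit genes spread about a median of 0.007.

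Factors that act with the ribosome lay about 0 as well. Of 34 genes of mitochondrial translation and ribosome assembly, 15 lay above and 19 below (median -0.006). The 3 with an unadjusted p under 0.05 were all lower: the assembly factor Rbfa (-0.20 ± 0.082), the RNA methyltransferase Nsun4 (-0.12 ± 0.051) and Mterf3 (-0.11 ± 0.052), a regulator of mitochondrial gene expression. Of 21 mitochondrial tRNA synthetases and related enzymes, 12 lay above and 9 below (median 0.011), with Iars2, the isoleucine enzyme, at 0.090 ± 0.040. Of 13 genes that transcribe and maintain mitochondrial DNA, 10 lay above and 3 below (median 0.034), and 0 had an unadjusted p under 0.05.

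Nuclear genes of the respiratory chain, whose protein partners the mitochondrial ribosome makes, were close to wild type. Complex I had 14 members above and 22 below (median -0.020), complexes II and III 10 and 4 (median 0.011), complex IV 5 and 7 (median -0.034) and complex V 8 and 7 (median 0.001). Ndufb10 of complex I lay at 91.2, 94.9 and 109 CPM in wild type and 84.7, 87.7 and 93.8 CPM in Mrpl40 het, a difference of -0.11 ± 0.036 on the log2 scale (edgeR adjusted p = 0.587), with 4 of 7 libraries below every wild-type library. The ATP synthase subunits Atp5j (-0.11 ± 0.036) and Atp5e (-0.14 ± 0.048) were the others with an unadjusted p under 0.05. All 4 medians were among those that changed sign.

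Genes of the mitochondrial stress response and of the ATF4 programme, which cells with impaired mitochondria often switch on, numbered 10 above and 17 below (median -0.022). Cth, an enzyme of cysteine synthesis and an ATF4 target, was the 1 with an unadjusted p under 0.05, at 3.42, 4.02 and 4.88 CPM in wild type and 2.50, 3.26 and 4.40 CPM in Mrpl40 het. Its groups overlapped and its log2 fold change was -0.28 ± 0.13 (edgeR adjusted p = 0.596). Of 23 genes of mitochondrial calcium uptake and permeability, 14 lay above and 9 below (median 0.016). Micu2, a calcium-sensing subunit that gates the uniporter, was at -0.11 ± 0.040 and the outer-membrane channel Vdac3 at 0.093 ± 0.041.

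Fuel and carrier genes were mixed. The pyruvate carrier subunits Mpc1 (-0.14 ± 0.043) and Mpc2 (-0.12 ± 0.043), which bring pyruvate into mitochondria, both had an unadjusted p under 0.05, while over the 31 genes of glycolysis and pyruvate use 20 lay above and 11 below (median 0.045). Dlat, a subunit of pyruvate dehydrogenase (0.16 ± 0.077), and the neuronal enolase Eno2 (0.094 ± 0.045) were the 2 members with an unadjusted p under 0.05 on the higher side. Mpc1 was counted at 27.4, 28.8 and 32.6 CPM in wild type and 24.6, 26.5 and 27.8 CPM in Mrpl40 het, with 6 of 7 libraries below every wild-type library. Of 26 genes of the citrate cycle and citrate use, 17 lay above and 9 below (median 0.023), with the plasma-membrane citrate transporter Slc13a5 at -0.36 ± 0.10 and the succinyl-CoA ligase subunit Suclg2 at -0.20 ± 0.068. The mitochondrial malic enzyme Me3 (0.11 ± 0.050) and the fatty acid synthase Fasn (0.12 ± 0.057) also had an unadjusted p under 0.05, both higher. Of 40 carriers of the SLC25 family, 27 lay above and 13 below (median 0.022). Slc25a40 (-0.16 ± 0.049) and the iron carrier Slc25a37 (-0.16 ± 0.055) had the smallest p among them, and the 3 others with an unadjusted p under 0.05, Slc25a16, Slc25a11 and Mtch1, lay above wild type (0.12, 0.081 and 0.095). Of 24 genes of cholesterol synthesis, 14 lay above and 10 below (median 0.006).

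Calcium and synaptic genes are of interest because short-term plasticity depends on presynaptic calcium. Of 36 genes of voltage-gated calcium channels, calcium stores and pumps, 23 lay above and 13 below (median 0.057), 5 with an unadjusted p under 0.05 above and 1 below. The channel subunit Cacnb2 lay at 55.6, 59.7 and 68.6 CPM in wild type and 59.5, 68.3 and 82.2 CPM in Mrpl40 het, with overlapping groups (0.18 ± 0.064, edgeR adjusted p = 0.587). Cacnb1, a further channel subunit, was at 0.16 ± 0.055, the store release channel Ryr3 at 0.21 ± 0.080, and the plasma-membrane calcium pump Atp2b4 at -0.52 ± 0.21. Of 42 genes of presynaptic release, 29 lay above and 13 below (median 0.047), and Syn3, a synapsin of synaptic vesicles, was the 1 with an unadjusted p under 0.05 (-0.33 ± 0.11).

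Of 41 glutamate receptor and scaffold genes, 27 lay above and 14 below (median 0.037), with 5 higher and 3 lower at an unadjusted p under 0.05. Grin1, the obligatory subunit of NMDA receptors, lay at 301, 329 and 358 CPM in wild type and 320, 381 and 394 CPM in Mrpl40 het. The groups overlapped, with 4 of 7 libraries above every wild-type library (0.15 ± 0.051, edgeR adjusted p = 0.587). The AMPA receptor subunit Gria3 was at 0.11 ± 0.043, and the kainate receptor subunit Grik1 at -0.38 ± 0.15. Of 21 genes of the GABA system, 9 lay above and 12 below (median -0.029), with 2 higher and 2 lower at an unadjusted p under 0.05. Gad1, an enzyme of GABA synthesis, was at -0.17 ± 0.059. Of 24 immediate early genes, which neuronal activity induces, 20 lay above and 4 below (median 0.122), and Junb, an AP-1 factor, was at 0.23 ± 0.088 (edgeR adjusted p = 0.590).

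Interferon-response genes lay mostly on the lower side. Of 23 members, 22 were below and 1 above wild type, with a median of -0.208, beside 52.9% below among all genes, and 7 had an unadjusted p under 0.05 in that direction, beside 4.14%. Ifit1, an antiviral RNA-binding protein, lay at 1.52, 2.01 and 2.75 CPM in wild type and 1.04, 1.45 and 1.61 CPM in Mrpl40 het, with 5 of 7 libraries below every wild-type library (-0.56 ± 0.18, edgeR adjusted p = 0.587). Rtp4, a chaperone induced by interferon, was at -0.52 ± 0.19 and Oasl2, of the oligoadenylate synthetase family, at -0.43 ± 0.16. All of these are scarce transcripts, and none passed. The members were measured in the same libraries, so their counts are not independent measurements. Over the list, Mrpl40 het also lay below Slc25a1 het (median -0.176), and double het, with the same Mrpl40 label, lay above Mrpl40 het (median 0.140). Both medians use the same Mrpl40 het libraries as the comparison with wild type. In cortex the median over the list was -0.139, with 17 members below and 6 above wild type. For the tissue difference, 2 members had an unadjusted p under 0.05. None passed, but 0 of all 21351 genes did, so this says nothing particular about the list.

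**Figure D5:**
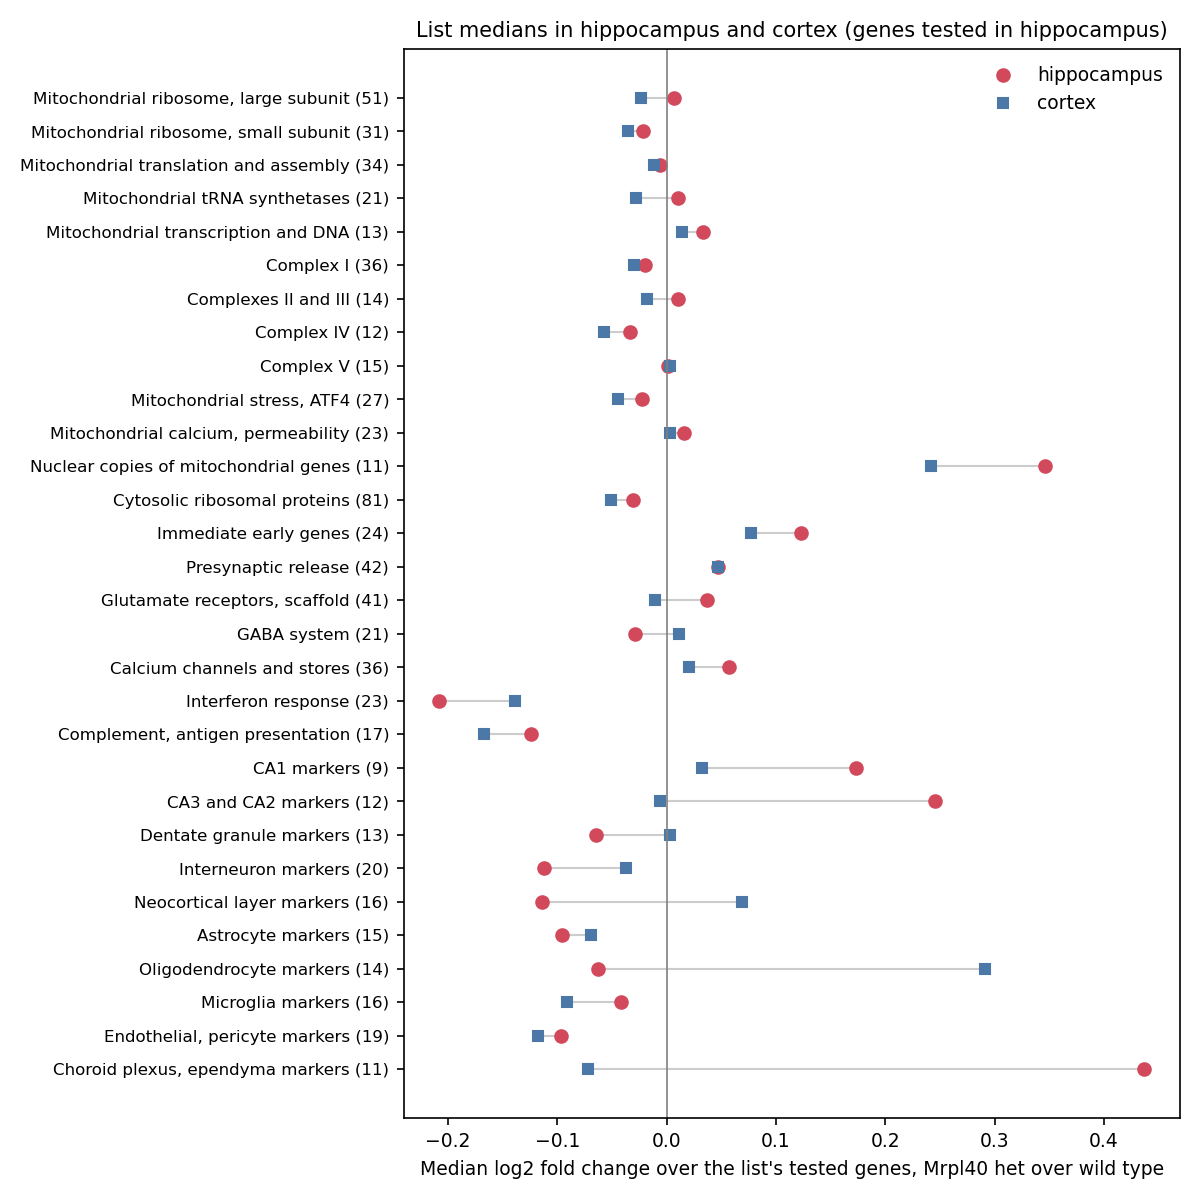
Median log2 fold change of Mrpl40 het against wild type for 30 gene lists in hippocampus and in cortex. The copies of mitochondrial genes lie at 0.346 in hippocampus and 0.242 in cortex, interferon-response genes at -0.208 and -0.139, and choroid plexus and ependymal markers at 0.437 and -0.072.

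Markers of the cell types and regions that a hippocampal dissection can hold were compared in the same way. All 15 astrocyte markers lay below wild type (median -0.095), among them the transcription factor Sox9 (-0.24 ± 0.091), and 3 had an unadjusted p under 0.05. Their summed level was 8496 to 10893 CPM in wild type and 7948 to 9641 CPM in Mrpl40 het. The 17 complement and antigen presentation genes all lay below (median -0.124), and so did 17 of 19 endothelial and pericyte markers (median -0.096) with 0 members at an unadjusted p under 0.05 in either list. Of 16 microglial markers 12 lay below (median -0.042). Of 20 interneuron markers 16 lay below (median -0.112), among them the neuropeptides Npy (-0.21 ± 0.082) and Vip (-0.39 ± 0.18).

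Of 16 choroid plexus and ependymal markers listed, 11 were tested. Of these, 10 lay above wild type (median 0.437), 6 with an unadjusted p under 0.05. The filter on low counts can keep a scarce marker through the groups where it is higher, so the tested members are not a neutral sample of the list. Their summed level was 31.0, 38.4 and 41.5 CPM in wild type and 34.5, 52.3 and 106 CPM in Mrpl40 het. Kl, 1 of these markers, alone lay at 18.3 to 26.5 CPM in wild type and 21.0 to 37.3 CPM in Mrpl40 het. Clic6, a chloride channel protein of choroid epithelium, lay at 0.124, 0.276 and 0.481 CPM in wild type and 0.202, 1.18 and 3.08 CPM in Mrpl40 het, and its log2 difference of 2.27 ± 0.60 did not pass (edgeR adjusted p = 0.578). Without Mrpl40 het library 5, the highest for this list, Clic6 was at 1.92 ± 0.61. The part of these differences in cell content in the results above was not tested.

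Pyramidal and granule cell markers varied between libraries, and the CA1 list by its sum did not set hippocampus apart from cortex. Of 12 CA3 and CA2 markers 11 lay above wild type (median 0.245) and of 9 CA1 markers 7 (median 0.173), with 0 at an unadjusted p under 0.05 in either list, and of 13 dentate granule markers 8 lay below (median -0.064). The summed CA3 and CA2 markers ranged from 327 to 511 CPM in wild type and from 395 to 774 CPM in Mrpl40 het. All 14 oligodendrocyte markers lay below in hippocampus (median -0.063) and all 14 above in cortex (median 0.292). Of 81 cytosolic ribosomal proteins 65 lay below (median -0.031), 10 with an unadjusted p under 0.05. The hippocampal medians of the CA1, dentate, oligodendrocyte and cytosolic ribosomal lists were among those that changed sign.

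The tissue difference asks where the hippocampus departed from cortex under the same label. Of 21351 genes tested, 0 passed (0%) and 1245 had an unadjusted p under 0.05 (5.83%). The smallest p belonged to Susd5, a sushi domain protein, at 4.37, 5.20 and 5.65 CPM in wild-type hippocampus and 3.49, 4.54 and 5.03 CPM in Mrpl40 het. Its log2 fold change was -0.23 ± 0.088 in hippocampus and 0.19 ± 0.080 in cortex (difference -0.43 ± 0.091, unadjusted p = 4.14e-05, edgeR adjusted p = 0.828). Pxn, the focal adhesion adaptor paxillin, was at 0.24 ± 0.079 in hippocampus and -0.045 ± 0.062 in cortex, and Msi1, an RNA-binding protein of neural progenitors, at -0.12 ± 0.064 and 0.13 ± 0.055. For Mrpl40 the tissue difference was 0.031 ± 0.076.

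Against Slc25a1 het, the group labelled heterozygous for the other gene, 18 genes passed by edgeR, 5 higher and 13 lower in Mrpl40 het, and 741 by the DESeq2 Wald test. Nwd1, a protein of the NACHT and WD repeat family, averaged less in Mrpl40 het (log2 fold change -0.38, edgeR adjusted p = 0.00871), as did the collagen chain Col9a3 (-0.36, edgeR adjusted p = 0.0187). Against wild type, Nwd1 was at -0.22 ± 0.060 and Col9a3 at -0.18 ± 0.063, and neither passed there. Slc25a1 itself was at 0.71 ± 0.23 (edgeR adjusted p = 0.108), with labelled Slc25a1 het animals that did not all show a low level. Slc25a1 het library 3 also had a summed cerebellar marker level of 618 CPM, against 22.1 to 35.3 CPM in Mrpl40 het. Without that library 10 genes passed, 8 of them among the 18. When the animals with Slc25a1 counts at odds with their genotype were left out, 4 genes passed, 3 of them among the 18 and the other Slc25a1, by whose level those animals were picked.

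Double het against Mrpl40 het, which share the Mrpl40 label and differ in the Slc25a1 label, gave 0 genes past the test (0%) by edgeR and 0 by the DESeq2 Wald test, and 943 with an unadjusted p under 0.05 (4.68%). The smallest p belonged to Tmem222, a membrane protein (log2 difference -0.15 ± 0.032, edgeR adjusted p = 0.958). Mrpl40 was at 15.8 ± 1.11 CPM (SD, n = 7) in Mrpl40 het and 16.1 ± 1.02 CPM (SD, n = 7) in double het. Slc25a1 was at 24.6 ± 1.02 CPM and 15.8 ± 6.29 CPM in the same groups.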

How the data were processed

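The authors deposited raw counts per gene, unscaled, for 59 libraries. They also deposited normalized counts, a signal whose values proved to be those counts over a single factor for each library. The submitters' processing notes name FastQC, HISAT2, featureCounts, DESeq2 and the build mm39 (GRCm39). The sources used here do not say how the counting treated strand or reads with several matches. Positions and sequences came from GENCODE vM21 (GRCm38).

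Counts were tested with edgeR 4.0.16 (R 4.3.3), using its quasi-likelihood test with robust dispersion, TMM factors, its filter on low counts and all 29 hippocampus libraries in 1 fit. The false discovery rate was 0.05 over all genes tested. The tissue difference used all 59 libraries with the animal as a block. Precision is limited by 15 animals and by 21467790 to 30347791 counts per library. Mrpl40 and Slc25a1 were also compared by exact permutation over 6435 regroupings. Nuclear copies were searched for with blastn 2.17.0. No list was tested as a set.

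Named genes were Mrpl40 and Slc25a1, the 10 smallest p, the largest changes past the test, the 2 smallest p of each list and the 5 smallest p of each other comparison. Of the genes named by this rule, 3 are not reported here. Other genes were chosen after their values were seen. The groups, gene lists and rules were chosen with earlier results of these data known. Replicates are separate animals by their labelled numbers. Replicate numbers mark different animals in the 2 groups and do not pair them. Alternatives were DESeq2 size factors, the DESeq2 1.42.0 Wald test, no filter, only the 2 groups, the replicate number as a block, a minimum fold of 1.2, sva 3.50.0 with 2 surrogate variables, limma 3.58.1 on log2 of the deposited normalized counts plus 1, and each library left out. Added after seeing the data were fits that left out libraries that stand apart or whose Slc25a1 level is at odds with the genotype label, and a fit with length and GC offsets.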

Additional observations from a re-analysis of the deposited data

Results flagged for a closer look

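In 6 of 56 groups of values looked at, 1 library lay far from the others of its group by Dixon's test, and chance gives about 1 in 20 such groups. Gm10222 was highest in Mrpl40 het library 4, at 334 CPM against 294 CPM in the next library, and its lowest Mrpl40 het value of 272 CPM was still above every wild-type library. Mrpl40 het library 5 stood apart in 3 marker sums, with choroid plexus and ependymal markers at 106 CPM (next library 62.4 CPM), dentate granule markers at 1032 CPM (next 1568 CPM) and oligodendrocyte markers at 4375 CPM (next 3152 CPM). Mrpl40 het library 6 had thalamic and habenular markers at 217 CPM (next 160 CPM). Wild-type library 8 had CA3 and CA2 markers at 327 CPM (next 428 CPM).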

How the results depend on the processing

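Precision was limited by 15 animals, and small changes in scarce genes were not detectable at this depth. Against wild type, the count of genes past the test (1 as reported) was 2 with DESeq2 size factors, 2 without the filter, 2 with 2 surrogate variables, 3 with limma on the deposited values, 6 with the 15 libraries alone, 7 with length and GC offsets, 11 with the DESeq2 Wald test, 0 at a fold of at least 1.2, and 1 to 3 with 1 library left out, where 3 passed without wild-type library 4. With the replicate number as a block it was 0, with 1619 genes at an unadjusted p under 0.05. Same-numbered animals did not deviate together (correlations of -0.133 to 0.0873 over 6 pairs and 5000 genes, 1 of 6 best with its own number). Gm10222 kept its direction in every alternative, 103 of the 106 genes named by rule besides Mrpl40 and Slc25a1 did so, and the cause of the other changes was not tested.

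Mrpl40 lay at 0.0057 with DESeq2 size factors, 0.0093 without the filter, 0.0046 by DESeq2, 0.00090 with surrogate variables, 0.0071 by limma, 0.027 without wild-type libraries 6 and 7, 0.054 with length and GC offsets, and -0.031 to 0.025 with 1 library left out. With length and GC offsets the median of all genes tested was itself 0.037. Of the genes named by rule, Lefty1, a CA1 marker, turned to -0.035 and Car8, a cerebellar marker, to 0.55 with surrogate variables, and Gm7729 to -0.0088 and -0.012 with 1 library left out (range -0.012 to 0.026).

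Against Slc25a1 het the count was 18, with 35 without the filter, 741 by the DESeq2 Wald test, 410 with the replicate block, 10 without the library with cerebellar markers and 4 when animals with Slc25a1 counts at odds with their genotype were left out. Double het against Mrpl40 het gave 1 gene with those animals left out, Slc25a1 itself, by whose level the animals were picked.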
